A study of Mus musculus with 82 samples.

Results

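Transcription of most genes starts when the TATA-binding protein (TBP) binds DNA near a promoter, and cells keep factors that take TBP off again or hold it inactive. TBP is shared by the complexes that start transcription by all nuclear RNA polymerases. BTAF1 is an ATPase that lifts TBP from DNA, while DR1 (NC2 beta) and DRAP1 (NC2 alpha) together form NC2, which grips TBP on DNA and blocks the entry of the next general factors. TBPL1 is a paralog of TBP that pairs with TFIIA and serves another set of promoters, with its best known role in the male germ line. The group described here consists of Tbp, Tbpl1, Btaf1, Dr1 and Drap1, which are 5 of the 55376 genes in the deposited count tables. They were picked by symbol, but with earlier results of these data known, and the study behind the data centres on Btaf1. All 5 passed the filter on low counts in every comparison of RNA libraries.

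The libraries came from wild-type male C57BL/6J mice. Hematopoietic stem cells (HSCs), sorted as Lin-Sca1+Kit+ (LSK) cells without CD34 and Flk2 and with CD150, were taken from young (YHSC, 3 to 4 months) and old (OHSC, 24 to 26 months) donors. RNA-seq held 4 YHSC libraries made from pooled mice and 8 OHSC libraries made from individual mice. In 2 further experiments OHSCs were infected with lentivirus that carries GFP and a scrambled shControl or 1 of 2 hairpins, shRNA1 and shRNA2, against a shorter Btaf1 variant. One set was cultured for 3.5 days and sorted for GFP, and the other was transplanted into lethally irradiated young female CD45.1 hosts, from which GFP+ donor (CD45.2) LSK CD48-CD150+ cells were sorted after pooling recipients. Each of these 6 groups had 2 libraries. Young common myeloid (CMP), granulocyte-macrophage (GMP) and megakaryocyte-erythroid (MEP) progenitors had 2 libraries each. ATAC-seq tables of 4 YHSC and 4 OHSC libraries, H3K27ac ChIP-seq signal of 2 libraries per age, H3K4me3 and H3K27me3 signal of 2 YHSC libraries and H3K36me3 domains were also used.

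Assigned reads per RNA library ran from 20475764 to 24654742 in the HSC set, from 37292602 to 42737054 in the shRNA sets and from 33177394 to 36510850 in progenitors. MEP and GMP libraries were each highest in the short MEP or GMP marker list used here. A list of 4 megakaryocyte markers, given below, was lower in MEPs than in CMPs and GMPs. The summed level of the 3 MEP markers (Gata1, Klf1 and Epor) was 1714 to 1757 read counts scaled to a common library size (CPM) in MEPs against 217 to 238 in CMPs and 6.62 to 14.3 in GMPs, and that of the 4 GMP markers (Mpo, Elane, Ctsg and Prtn3) was 71332 to 72011 CPM in GMPs against 17790 to 21735 in CMPs and 18.8 to 48.3 in MEPs. The summed level of 7 HSC markers (among them Slamf1, Procr and Mecom) was 2934 to 3135 CPM in YHSC and 2833 to 3313 CPM in OHSC libraries. The labels tie the replicates of the shRNA and progenitor groups to no separate animals, so p-values there measure only the spread between these libraries. In bulk libraries fewer cells of a type and less RNA per cell cannot be told apart.

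The 5 genes lie apart from each other in the genome (mm10, GENCODE M21 coordinates). Tbp occupies chr17:15499888-15528379 on the plus strand, and its longest transcript model covers the whole of Pdcd2 on the opposite strand, an overlap of 8094 bases. Tbpl1 (chr10:22703879-22731938, minus strand) overlaps Slc2a12 by 407 bases, and Drap1 (chr19:5422805-5424979, minus strand) overlaps 4930481A15Rik by 43 bases. No source used here gives the strand setting of the counting, so reads of these 3 genes and of their overlapping neighbours cannot be told apart with certainty. Btaf1 (chr19:36926079-37012752, plus strand) and Dr1 (chr5:108268897-108280526, plus strand) overlap no other annotated gene. The canonical Btaf1 transcript has 38 exons. The shorter variant shares the first 13 of them, which hold 1835 of 7204 exon bases (25.5%), and then ends in a part of its own, while intron 13 holds 0 annotated exon bases. In the protein the ATPase domain is at the C-terminal end, so the shorter form lacks it. The gene-level Btaf1 count joins both forms, sees the variant mainly through the shared exons and does not show which form a difference belongs to.

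The DNA just before the start of 4 of the members is shown because the accessible regions described below cover it. The H3K27ac peaks cover it too, except at Drap1, where they lie to either side. The letters come from RefSeq promoter records of GRCm38.p6 (mm10), in which all 5 members had an entry, and are written 5′ to 3′ on the gene's own strand, ending at position -1. The records were searched on both strands for TATAAA, the core of the TATA box that TBP itself recognises, for CGGAAG, the core letters of ETS factor sites, and for TGACGTCA, the palindromic cyclic AMP response element. Capitals mark a match, and the last pair of motifs was chosen after the sequences had been read. The 250 bases before Btaf1 lie at chr19:36925829-36926078 on the plus strand and end in the palindrome at -9 to -2, while those before Dr1 lie at chr5:108268647-108268896 on the plus strand with CGGAAG at -104 to -99.
Btaf1: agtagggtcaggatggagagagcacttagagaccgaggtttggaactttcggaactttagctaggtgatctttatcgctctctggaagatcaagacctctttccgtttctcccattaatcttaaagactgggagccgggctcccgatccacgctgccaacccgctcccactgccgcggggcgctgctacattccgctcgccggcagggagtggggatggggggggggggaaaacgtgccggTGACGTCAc
Dr1: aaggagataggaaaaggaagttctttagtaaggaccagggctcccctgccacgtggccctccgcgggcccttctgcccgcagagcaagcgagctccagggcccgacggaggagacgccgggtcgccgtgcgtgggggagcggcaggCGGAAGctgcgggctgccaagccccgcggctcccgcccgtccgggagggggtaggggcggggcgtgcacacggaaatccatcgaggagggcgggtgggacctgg
For Tbp, whose start lies 137 bases from that of Psmb1 on the other strand, only the 100 bases at chr17:15499788-15499887 are printed, and for Drap1, 165 bases from the start of AI837181, only the 100 bases at chr19:5424980-5425079 on the minus strand.
Tbp: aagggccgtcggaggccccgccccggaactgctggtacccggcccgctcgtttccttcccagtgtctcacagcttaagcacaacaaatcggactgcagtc
Drap1: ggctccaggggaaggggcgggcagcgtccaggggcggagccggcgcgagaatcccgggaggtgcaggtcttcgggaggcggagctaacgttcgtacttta
In the full 250 bases, no TATAAA stood before Tbp, Tbpl1, Btaf1 or Dr1, and Drap1 had 1 on the opposite strand at -161 to -156. Among the 32851 mouse promoter windows of that length 12.4% held TATAAA. TGACGTCA was found in 1.55% of them and, among the members, in Btaf1 alone. CGGAAG was found in 13.6%, and besides Dr1 also before Tbpl1, at -96 to -91 on the opposite strand and at -38 to -33. A match here is a run of letters and no evidence that a factor is bound.

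The first comparison asked how the group changes between YHSCs and OHSCs. The gene-level Btaf1 count, over both of its forms, and the NC2 subunit Dr1 were higher in OHSCs, by 1.45-fold and 1.51-fold, with no overlap between the ages. Tbp, its paralog Tbpl1 and the other NC2 subunit Drap1 did not pass the test. So 2 of 5 members were called, both upward, where 21.1% of the 21522 genes tested were called (4532 genes, 2751 higher and 1781 lower in OHSCs, edgeR, adjusted p below 0.05).

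Tbp itself was measured at 87.0, 78.8, 90.3 and 83.2 CPM in the 4 YHSC libraries. In the 8 OHSC libraries it ran from 79.4 to 89.2 CPM with a median of 82.4. The ranges overlap almost completely, and the log2 fold change was 0.01 (SE 0.04, edgeR adjusted p = 0.954), a value whose sign turned under other scalings. Tbpl1 showed the same picture at a lower level, with 51.2, 48.8, 54.3 and 50.3 CPM in YHSCs and 44.9 to 54.5 CPM (median 48.0) in OHSCs, and a log2 fold change of -0.04 (SE 0.05, edgeR adjusted p = 0.728).

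Btaf1, counted over the canonical ATPase and the shorter variant without that domain, stood at 92.5, 69.9, 74.9 and 93.4 CPM in the YHSC libraries. In OHSCs its lowest library was at 96.4, the median at 118.8 and the highest at 135.1 CPM. Every OHSC library lay above every YHSC library, although the lowest of the former and the highest of the latter differed by little. The log2 fold change was 0.54 (SE 0.09, edgeR adjusted p = 0.000534), and it ranged from 0.46 to 0.59 when each library was left out in turn.

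Dr1, the beta subunit of NC2, had the lowest adjusted p of the members. Its YHSC libraries were at 73.5, 69.8, 72.9 and 81.6 CPM, and its OHSC libraries ran from 103 to 125.2 CPM around a median of 109.7. No library of 1 age reached the range of the other. The log2 fold change was 0.60 (SE 0.05, edgeR adjusted p = 1.44e-09). Drap1, its partner in the same dimer, had 64.2, 57.4, 62.2 and 62.9 CPM in YHSCs and 55.7 to 67.9 CPM (median 62.9) in OHSCs, with a log2 fold change of 0.05 (SE 0.05, edgeR adjusted p = 0.575).

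**Figure D1:**
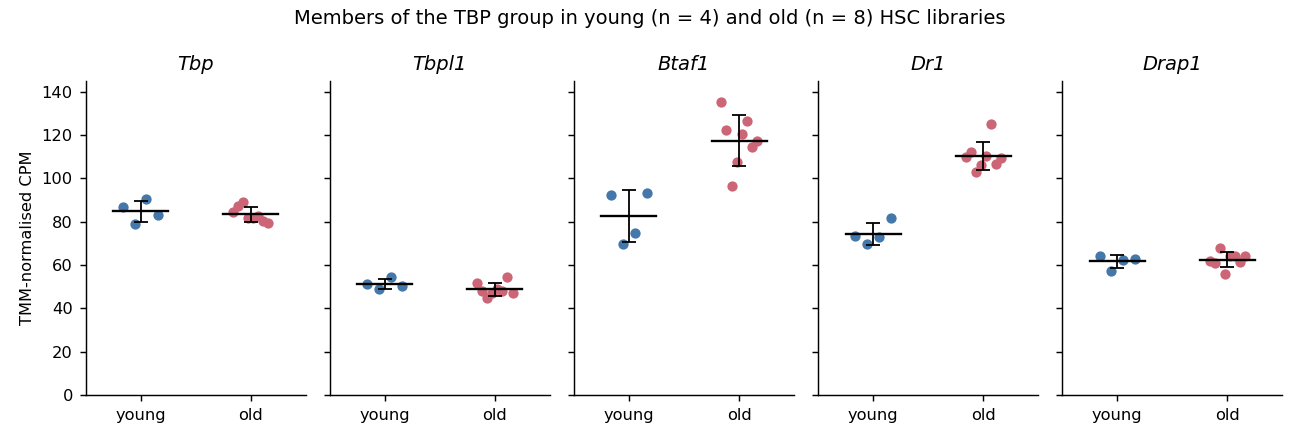
Level of each gene in CPM (y axis, scaled by TMM over all RNA libraries) in the 4 young and 8 old HSC libraries (x axis). Points are libraries, long bars are means and whiskers are 1 SD. For Btaf1 and Dr1 all old points lie above all young points, while for Tbp, Tbpl1 and Drap1 the 2 clouds overlap.

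Other lists moved between the same libraries. The summed level of 4 megakaryocyte markers (Pf4, Itga2b, Vwf and Gp1bb) was 393 to 429 CPM in YHSCs and 746 to 1055 CPM in OHSCs, that of 4 GMP markers 109 to 134 and 251 to 303 CPM, and that of 3 MEP markers 32.1 to 44.2 and 13.1 to 23.4 CPM. Markers of neutrophils (2.43 to 141 and 2.29 to 70.2 CPM), B cells (56.8 to 142 and 2.68 to 142 CPM) and erythroid cells (11.7 to 14.6 and 13.04 to 72.0 CPM) overlapped between the ages, and no marker of these lists was at 0 in a whole group. The part of these shifts in the Btaf1 and Dr1 values was not tested. Pooled YHSC samples and individual OHSC samples also differ by age, so pooling and age cannot be told apart.

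Because both partners of a pair are read in the same library, their ratio does not depend on how libraries are scaled. Ratios of counts per kilobase of mRNA were compared for 3 pairs, with p-values adjusted over the 3. Since they use the same counts as the fold changes above, they are another view of those values and no separate evidence. The size of a ratio rests on the mRNA lengths used, while a length held fixed for each gene cancels from the difference between the ages. The counts do not show whether the mix of Btaf1 forms, and so the length behind the Btaf1 count, was the same at both ages. The Btaf1 to Tbp ratio was 0.210 in YHSCs (log2 -2.25 ± 0.21, SD, n = 4) and 0.304 in OHSCs (log2 -1.72 ± 0.17, SD, n = 8), a log2 difference of 0.54 (two-sided exact permutation p = 0.00808, adjusted p = 0.0121). One OHSC library, at -2.10, lay within the YHSC range, which reached -2.04. The Dr1 to Drap1 ratio was 0.391 in YHSCs (log2 -1.35 ± 0.08, SD, n = 4) and 0.573 in OHSCs (log2 -0.80 ± 0.11, SD, n = 8), so the balance of the 2 NC2 messages differed by 0.55 on the log2 scale without overlap (two-sided exact permutation p = 0.00404, the smallest that the 495 splits allow, adjusted p = 0.0121). The Tbpl1 to Tbp ratio, 0.387 and 0.375, differed by -0.04 on the log2 scale (two-sided exact permutation p = 0.497).

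The knockdown experiments asked what follows when the shorter Btaf1 variant is targeted in OHSCs. The gene-level Btaf1 count was lower with both hairpins and in both experiments, by 1.24-fold in culture, where the difference passed the test, and by 1.29-fold after transplantation, where it did not after adjustment. Tbp, Tbpl1, Dr1 and Drap1 were not called in either experiment with the hairpins joined. In culture this is 1 of 5 members called, against 3.36% of 19763 genes (665 genes). The member called was Btaf1, the target of the hairpins, so the count is not read as a result about the group. After transplantation it is 0 of 5, against 0% of 20350 genes by edgeR, where 1138 genes had an unadjusted p below 0.05 and DESeq2 called 60.

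In cultured cells Btaf1 was at 149.4 and 153.1 CPM with shControl, at 117.4 and 126.9 CPM with shRNA1 and at 121.4 and 122.5 CPM with shRNA2. The 4 knockdown libraries all lay below the 2 controls. The log2 fold change was -0.31 (SE 0.05, edgeR adjusted p = 0.00151), and without the second shControl library the adjusted p was 0.0744. The call held in the other 5 fits without 1 library. The other members differed from shControl by -0.01 (Tbp, SE 0.05), -0.06 (Tbpl1, SE 0.06), 0.11 (Dr1, SE 0.08) and 0.07 (Drap1, SE 0.06) on the log2 scale, with edgeR adjusted p from 0.601 to 0.945. The number of genes called in culture fell from 665 to 141 and 150 without the first or the second shControl library, and was 1916 with shRNA1 alone and 1470 with shRNA2 alone.

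Marker lists differed between the cultured groups as well. Summed HSC markers were 1439 to 1456 CPM with shControl, 1628 to 1655 with shRNA1 and 1596 to 1695 with shRNA2. Summed MEP markers were 36.8 CPM in both shControl libraries, 28.8 to 31.8 CPM with shRNA1 and 27.8 to 29.6 CPM with shRNA2, and summed GMP markers were 170.2 to 176 CPM, 197 to 198 CPM and 251 to 262 CPM. Erythroid markers ran from 98.9 to 101 CPM, 58.1 to 65.2 CPM and 84.8 to 89.3 CPM in the same order. Megakaryocyte markers were 1341 to 1369 CPM with shControl, 1368 to 1374 CPM with shRNA1 and 1241 to 1338 CPM with shRNA2, which lay below shControl. Of the GMP list, Mpo and Ctsg were at 0 with shControl, Elane with shRNA1 and Ctsg with shRNA2, and Hba-a1 of the erythroid list was at 0 with shControl. Their part in the lower Btaf1 level was not tested.

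In transplanted cells Btaf1 was at 158 and 163.8 CPM with shControl, at 128.8 and 136.1 CPM with shRNA1 and at 118 and 116.2 CPM with shRNA2. Again the 4 knockdown libraries lay below both controls. The log2 fold change was -0.37 (SE 0.08) with an edgeR adjusted p of 0.791, although by its unadjusted value of 0.000891 Btaf1 ranked 18 among the 20350 genes, and DESeq2 gave an adjusted p of 0.0240. The 4 remaining members differed from control by -0.08 (Dr1) to 0.10 (Tbp) on the log2 scale, with edgeR adjusted p from 0.944 to 0.992. Summed neutrophil markers in these libraries were 4.32 to 86.3 CPM with shControl, 136 to 415 CPM with shRNA1 and 54.9 to 314 CPM with shRNA2, while summed HSC markers were 2797 to 2880, 2576 to 2588 and 2462 to 2710 CPM. Erythroid markers were 17.8 to 40.6 CPM with shControl, 15.7 to 91.3 CPM with shRNA1 and 59.3 to 83.4 CPM with shRNA2, which lay above shControl. GMP markers were 181 to 278 CPM, 183 to 426 CPM and 168 to 207 CPM, and megakaryocyte markers 406 to 581 CPM, 341 to 564 CPM and 347 to 424 CPM, in the same order. Their part in the member values was not tested.

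The effect of the knockdown on each member was then compared between the experiments in 1 fit of all 12 libraries. No member differed, where 0.21% of 21443 genes were called (45 genes, and 1 to 117 when each library was left out in turn, 1 without either cultured shControl library and 117 without the second transplanted shRNA1 library). For Btaf1 the effect in culture minus that after transplantation was 0.06 (SE 0.09, edgeR adjusted p = 0.919), and for Dr1 it was 0.19 (SE 0.13, edgeR adjusted p = 0.754). None of the 5 had an unadjusted p below 0.05, and DESeq2 called none of them either.

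The hairpins themselves were not alike for Dr1. In culture Dr1 was at 85.2 and 85.3 CPM with shControl, at 94.6 and 103.3 CPM with shRNA1 and at 82.3 and 87.2 CPM with shRNA2. The shRNA1 libraries lay above all the others, and shRNA2 lay around the controls. The difference of shRNA1 from shRNA2 was 0.23 on the log2 scale (SE 0.06, edgeR adjusted p = 0.0153), in a comparison that called 1 of 5 members and 5.59% of 19763 genes (1105 genes, and 536, 494 and 721 without the first shRNA1, the second shRNA1 or the first shRNA2 library). The Dr1 difference ranged from 0.16 to 0.29 when each library was left out, and the call was lost in 2 of those 6 fits, with an adjusted p of 0.319 without the second shRNA1 library and of 0.164 without the first shRNA2 library. Btaf1 differed by 0.00 between the hairpins in culture (SE 0.05, edgeR adjusted p = 0.979). After transplantation 0 of 5 members and 0.00983% of 20350 genes (2 genes, and 0 to 25 when each library was left out, 25 without the first shRNA1 library) differed between hairpins. There Btaf1 was lower with shRNA2, with a difference of 0.18 (SE 0.06), and its unadjusted edgeR p of 0.0207 became 0.369 on adjustment, while DESeq2 called 355 genes in all.

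**Figure D2:**
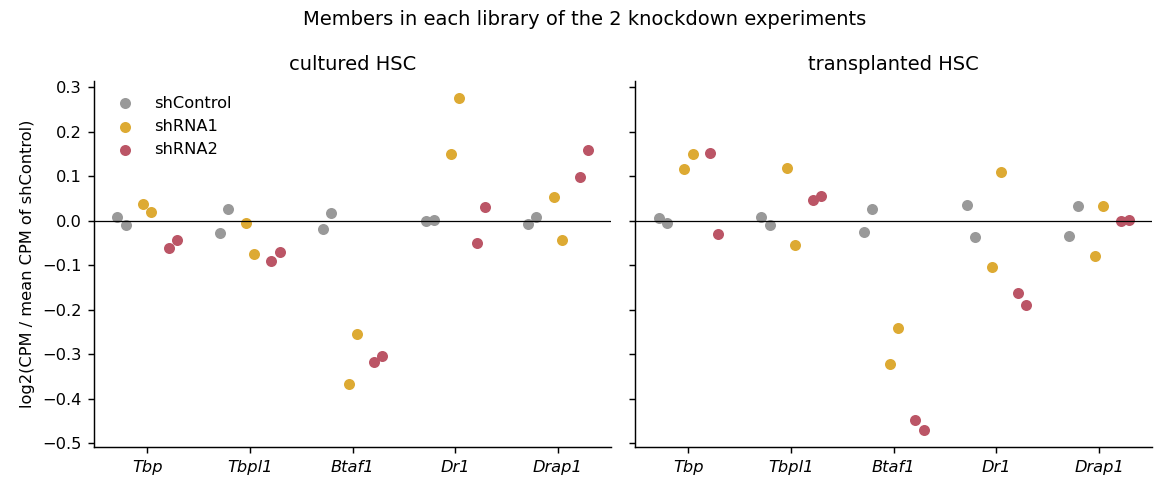
Log2 ratio of each library's CPM to the mean CPM of the shControl libraries (y axis) for the 5 genes (x axis) in cultured and in transplanted HSCs. Points are single libraries, 2 per group and colored by hairpin. Btaf1 lies below 0 in all 8 knockdown libraries, and Dr1 lies above 0 in both cultured shRNA1 libraries.

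The young progenitors were compared to see where along myeloid differentiation the group is expressed. MEPs carried by far the most Btaf1, 2.35-fold above CMPs and 2.38-fold above GMPs, and also the most Tbp. Dr1 was higher in MEPs and in GMPs than in CMPs. Tbpl1 did not differ between the 3 populations at the threshold, and Drap1 passed it in 1 comparison. The 3 comparisons share libraries and a fit, so their calls are not independent.

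Btaf1 was at 483.4 and 507.3 CPM in MEPs, at 201.3 and 215.6 CPM in CMPs and at 196.2 and 207 CPM in GMPs. The MEP libraries stood far above the rest, and CMP and GMP libraries overlapped. The log2 fold change was 1.23 (SE 0.05) for MEP against CMP (edgeR adjusted p = 2.21e-10), 1.25 (SE 0.05) for MEP against GMP (edgeR adjusted p = 1.84e-10) and -0.01 for GMP against CMP. Tbp was at 165.5 and 159.2 CPM in MEPs, 130.4 and 139.1 CPM in GMPs and 120.9 and 124.7 CPM in CMPs, with no overlap between any of the groups. Its log2 fold change was 0.39 for MEP against CMP (edgeR adjusted p = 5.13e-05), 0.22 for MEP against GMP (edgeR adjusted p = 0.00488) and 0.17 for GMP against CMP (edgeR adjusted p = 0.0399), the last of which was lost when the filter on low counts was dropped and in 5 of the 6 fits without 1 library, all but that without GMP replicate 1, with an adjusted p of up to 0.254. The call between MEP and GMP was lost without GMP replicate 1 (adjusted p = 0.0633) and without MEP replicate 1 (adjusted p = 0.0507).

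Dr1 was at 143.5 and 138.7 CPM in MEPs, 129.1 and 133.1 CPM in GMPs and 103.5 and 110.6 CPM in CMPs. It rose by 0.38 on the log2 scale from CMP to MEP (edgeR adjusted p = 8.57e-05) and by 0.33 from CMP to GMP (edgeR adjusted p = 0.0010). Its NC2 partner Drap1 was at 114.6 and 113.2 CPM in MEPs, 113.1 and 112.8 CPM in GMPs and 105.8 and 99.8 CPM in CMPs, and its difference of 0.17 between GMP and CMP (edgeR adjusted p = 0.0438) was lost whenever any 1 of the 6 libraries was left out (adjusted p from 0.0614 to 0.269). Tbpl1 lay between 57.4 and 69.8 CPM in all 6 libraries.

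Other marker lists than those of MEPs and GMPs also differed between the progenitors. Summed B cell markers were 277 to 299 CPM in CMPs, 242 to 339 CPM in GMPs and 3.21 to 5.18 CPM in MEPs, and megakaryocyte markers were 619 to 627 CPM, 45.7 to 87.4 CPM and 23.7 to 24.6 CPM in the same order. Erythroid markers ran the other way, with 2.01 to 2.21 CPM in CMPs, 0.659 to 0.755 CPM in GMPs and 104 to 120.1 CPM in MEPs. HSC markers were 1067 to 1074 CPM, 691 to 776 CPM and 657 to 721 CPM, and neutrophil markers 49.8 to 65.2 CPM, 35.3 to 47.7 CPM and 9.15 to 19.4 CPM. Procr and Gp1bb were at 0 in MEPs and Ebf1 was at 0 in GMPs. The part of these lists in the Btaf1, Tbp and Dr1 differences was not tested.

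These counts have to be read against the whole table, since most genes differ between these populations. For MEP against CMP 3 of 5 members were called, all upward, beside 64.6% of the 18234 genes tested. For GMP against CMP 3 of 5 were called upward beside 34.8%, and for MEP against GMP 2 of 5 beside 61.4%. The members' shares are close to these or rest on few genes, and nothing about the group is read from them.

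Across all 11 groups of RNA libraries the members differed in how much they varied. The highest group mean was 5.99 times the lowest for Btaf1, 1.95 times for Tbp, 1.90 times for Dr1, 1.85 times for Drap1 and 1.49 times for Tbpl1. Groups from different experiments also differ in preparation and sequencing depth, so this order is a description without a test. For Tbp, Btaf1, Dr1 and Drap1 the highest group was MEP, and for Tbpl1 it was cultured shControl (72.7 CPM). The lowest group was YHSC for Btaf1 (82.7 CPM), Dr1 (74.4 CPM) and Drap1 (61.7 CPM) and OHSC for Tbp (83.4 CPM) and Tbpl1 (48.8 CPM). For the order of Tbp, MEP (162.3 CPM), GMP (134.8 CPM) and CMP (122.8 CPM) were each apart from the next lower group, transplanted shRNA1 (117.7 CPM) and shControl (107.3 CPM) did not overlap with each other while transplanted shRNA2 overlapped with both, and YHSC (84.8 CPM) and OHSC overlapped at the bottom.

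The order of Btaf1 put MEP (495.4 CPM) first, then CMP (208.5 CPM) and GMP (201.6 CPM), which overlapped with each other. Transplanted (160.9 CPM) and cultured (151.3 CPM) shControl cells came next and did not overlap, followed by transplanted shRNA1 (132.5 CPM). Below them cultured shRNA1 (122.1 CPM), cultured shRNA2 (122 CPM), OHSC (117.5 CPM) and transplanted shRNA2 (117.1 CPM) overlapped in sequence, and YHSC came last, apart from its neighbour. With DESeq2 size factors OHSC moved from rank 9 to rank 7 of the 11, so its place among the knockdown groups depends on the scaling.

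Dr1 had another order, in which OHSC (110.4 CPM) followed MEP (141.1 CPM) and GMP (131.1 CPM) and overlapped with CMP (107 CPM). Cultured shRNA1 (98.9 CPM) was apart from the group below it. Transplanted shRNA1, transplanted shControl, cultured shControl and cultured shRNA2 (84.8 to 85.8 CPM) overlapped, and so did transplanted shRNA2 (75.7 CPM) and YHSC. For Tbpl1 the 8 highest groups, from cultured shControl to transplanted shControl (64.4 CPM), each overlapped with the next, GMP (59.3 CPM) stood apart, and the freshly sorted HSCs overlapped at the bottom (51.2 CPM in YHSCs). For Drap1 MEP (113.9 CPM), GMP (112.9 CPM) and CMP (102.8 CPM) were each apart from the next lower group, the cultured groups (87.7 to 96.0 CPM) came before the transplanted ones (81.0 to 82.3 CPM), which overlapped with each other, and OHSC (62.5 CPM) overlapped with YHSC.

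Levels of different genes can be set side by side only per length. Per kilobase of mRNA, Drap1 was the highest member in YHSCs (61.7 CPM per kb), followed by Tbp (46.0), Dr1 (24.2), Tbpl1 (17.8) and Btaf1 (9.71). In OHSCs the order was the same, with Drap1 at 62.5, Tbp at 45.3, Dr1 at 35.8, Tbpl1 at 17.0 and Btaf1 at 13.8 CPM per kb. In MEPs Btaf1 reached 58.2 CPM per kb, above Dr1 (45.8) and Tbpl1 (23.4) but under Tbp (88.1) and Drap1 (114). These levels use the lengths of RefSeq mRNAs, and the place of Tbp depends on that choice. With the length of all annotated exons, chosen after seeing the data and 13.576 kb in place of 1.842 kb for Tbp, Tbp was the lowest member in all 3 groups, with 6.25 CPM per kb in YHSCs, 6.14 in OHSCs and 11.96 in MEPs, against 8.06, 11.4 and 48.3 for Btaf1, while Drap1 remained the highest. The short variant of Btaf1 would change its value too.

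**Figure D3:**
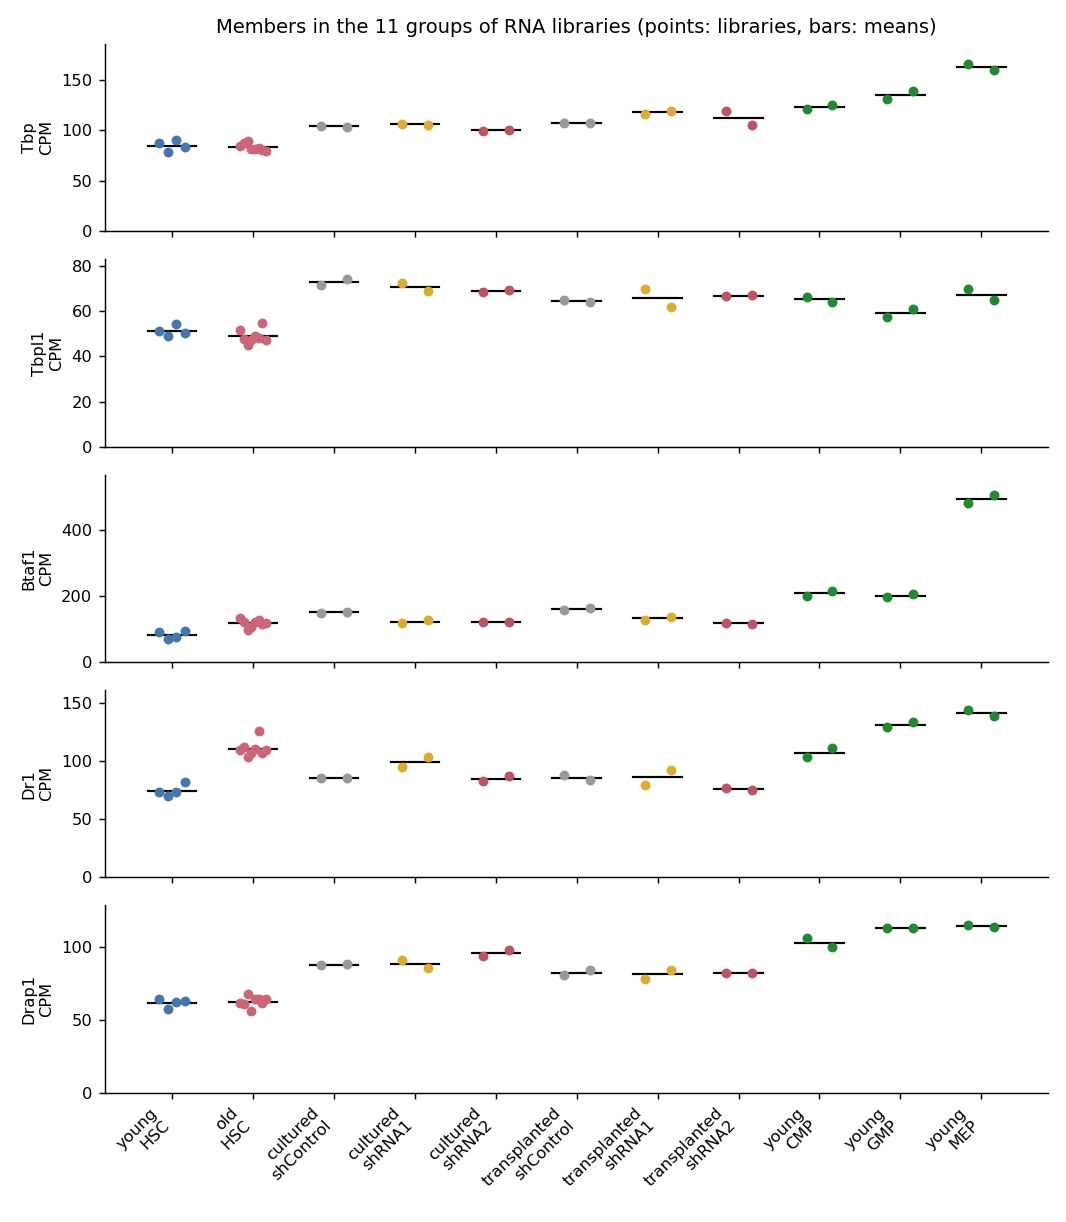
Level of each gene in CPM (y axes, from 0) in the 11 groups of RNA libraries (x axis). Points are libraries and bars are group means. Btaf1 is highest in MEP (483.4 and 507.3 CPM), and the mean of Dr1 in old HSCs (110.4 CPM) lies above those of young HSCs and of all shRNA groups.

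Over the 30 libraries, the member pair with the most similar pattern was Tbp and Drap1 (Pearson r = 0.91 of log2 CPM), and the least similar was Tbpl1 and Dr1 (r = -0.14). Dr1 and Drap1, which form 1 complex, had r = 0.34, lower than Btaf1 and Tbp with r = 0.84. Among the 15885 genes with a mean of at least 1 CPM, the genes most like Tbp were Nifk, Ndufaf4 and Ppid (r = 0.98 each), and those most like Drap1 were Psma1 (0.99), Slc25a5 (0.98) and Oaz1 (0.98). Those most like Btaf1 were Noa1, Dnaja3 and Gtf2f1 (r = 0.94 each), those most like Tbpl1 were Fyttd1 (0.95), Gm15773 and Gm6794 (0.94 each), and those most like Dr1 were Rbm19 (0.92), Stom (0.87) and Cited4 (0.84). These values describe libraries that share experiment, depth and cell type within each group, so they carry no p.

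Chromatin at the members was compared between the ages next. ATAC-seq marks DNA that a transposase can reach, and 15 accessible regions overlapped a member or the 1000 bases before its start. In OHSCs 1 of them, inside an intron of Tbp, was 6.20-fold more accessible, while no start region was called, with ratios of OHSC to YHSC accessibility from 0.713 at Tbpl1 to 0.937 at Drap1. Of the 12 regions with enough reads, 3 were called by fold above 1.5 and adjusted p below 0.01 (1 higher and 2 lower), beside 13% of the 89245 regions tested (8999 higher and 2592 lower). The 3 regions that were not tested, in introns of Btaf1 and Dr1, held at most 1.19 CPM in any library.

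The intronic Tbp region lies at chr17:15510475-15511350 (mm10, 876 bases), with its centre 11024 bases after the Tbp start, in an intron of 6 of the 12 annotated Tbp transcripts and in an exon of none. It was at 1.90, 1.93, 1.91 and 0.877 CPM in the YHSC libraries and at 9.055, 12, 8.74 and 10.6 CPM in the OHSC libraries. All OHSC values lay far above all YHSC values. The log2 fold change was 2.63 (SE 0.17, edgeR adjusted p = 1.24e-18). The middle 300 bases, chr17:15510762-15511061, are shown on the plus strand because this is the DNA whose accessibility differed most among the members, with TGTGGT, the core letters of a RUNX site, and TGACTCA, the reverse complement of the AP-1 letters TGAGTCA, in capitals.
Tbp intron: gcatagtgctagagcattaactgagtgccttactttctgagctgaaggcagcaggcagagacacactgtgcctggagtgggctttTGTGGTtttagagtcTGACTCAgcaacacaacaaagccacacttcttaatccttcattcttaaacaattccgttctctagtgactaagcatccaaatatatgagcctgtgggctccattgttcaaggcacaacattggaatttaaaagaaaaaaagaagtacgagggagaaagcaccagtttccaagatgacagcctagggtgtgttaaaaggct
The RUNX letters stand at bases 86 to 91 of this window and the AP-1 letters at 101 to 107. Among the 127692 region middles of 300 bases, TGTGGT was found on either strand in 28.4% and TGAGTCA in 9.24%. The GATA letters AGATAA (14.8% of regions) and the ETS letters AGGAAG (50.0%) were not in this window. All 4 motifs were chosen after the sequence had been seen. Repeat-masked letters made up 37.9% of the region and 32.4% of chromosome 17.

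The start regions were within 1.5-fold between the ages and so none was called, although for Btaf1, Tbpl1 and Dr1 the adjusted p was below 0.01. The share of all regions past that adjusted p alone was not counted, so these values are not read as particular to the members. At Btaf1 (chr19:36925533-36926653, which holds the printed promoter) accessibility was 26.8, 25, 29.4 and 27.4 CPM in YHSCs and 19.96, 20.9, 19.9 and 19.6 CPM in OHSCs. There was no overlap, and the log2 fold change was -0.44 (SE 0.07, edgeR adjusted p = 7.36e-07). At the Tbpl1 start (chr10:22730712-22732227) the values were 51.2, 53.0, 53.8 and 53.0 CPM in YHSCs and 36.4, 38.1, 35.35 and 40.4 CPM in OHSCs, a log2 fold change of -0.49 (SE 0.05, edgeR adjusted p = 4.00e-11). At the Dr1 start (chr5:108268357-108269415), where the RNA was higher with age, accessibility was 42.3, 45.1, 38.7 and 41.5 CPM in YHSCs and 35.8, 35.6, 35.5 and 37.9 CPM in OHSCs, a log2 fold change of -0.21 (SE 0.06, edgeR adjusted p = 0.00289). The Tbp start differed by -0.12 (SE 0.05, edgeR adjusted p = 0.0771) and the Drap1 start, shared with AI837181, by -0.09 (SE 0.08, edgeR adjusted p = 0.408).

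The 2 regions called as less accessible both belong to Tbpl1. One, of 235 bases, is centred at position -434 (3.31 ± 0.56 CPM in YHSCs and 1.86 ± 0.48 CPM in OHSCs, SD, n = 4 each), with a log2 fold change of -0.81 (SE 0.21, edgeR adjusted p = 0.00141). The other is an intronic region 17042 bases after the start (5.49 ± 0.77 and 3.68 ± 0.35 CPM, SD, n = 4 each), with a log2 fold change of -0.59 (SE 0.15, edgeR adjusted p = 0.00159). The upstream region lost its call without YHSC replicate 2 or OHSC replicate 6 (adjusted p = 0.0102 and 0.0136), and the intronic one without YHSC replicate 1, YHSC replicate 3 or OHSC replicate 7 (log2 fold change of -0.57, -0.50 and -0.52). A region 27450 bases after the Tbp start holds the annotated start of Pdcd2 and differed by -0.08 (edgeR adjusted p = 0.224).

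H3K27ac, a histone mark of active promoters and enhancers, was given as a signal in 7 peaks at the members. At the Btaf1 start it was higher in OHSCs, and so it was at the accessible intronic region of Tbp. At the starts of Tbp, Tbpl1, Dr1 and Drap1 it did not reach the rule of the comparison, a ratio of mean signals above 1.5 with at least 1.2 in each pairing of an old and a young library. This gave 2 of 7 peaks, beside 11.4% of the 39557 peaks (3602 higher and 898 lower), and limma called 1 of 7, beside 3.18%.

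At the Btaf1 start (chr19:36925403-36926931) the H3K27ac signal was 12.9 and 11.4 in YHSCs and 22.9 and 20.6 in OHSCs. Both OHSC libraries lay above both YHSC libraries, the ratio of means was 1.78, and limma on log2 signal gave an adjusted p of 6.31e-07. Accessibility at the same place was lower in OHSCs, so the 2 measurements differed there in opposite directions. In the Tbp intron (chr17:15510701-15511397, sharing 650 bases with the accessible region) the signal was 0.519 and 0.477 in YHSCs and 1.21 and 1.27 in OHSCs. These are low values with a ratio of 2.49, which passed the ratio rule but not limma (adjusted p = 0.0634). At the Dr1 start (chr5:108268288-108270568) the signal was 4.40 and 4.12 in YHSCs and 5.12 and 5.02 in OHSCs, a ratio of 1.19 (limma adjusted p = 0.444). The ratio was 0.900 at the Tbp start, 0.922 at the Tbpl1 start, and 1.00 and 0.983 at the 2 Drap1 peaks, which the file also assigns to AI837181.

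**Figure D4:**
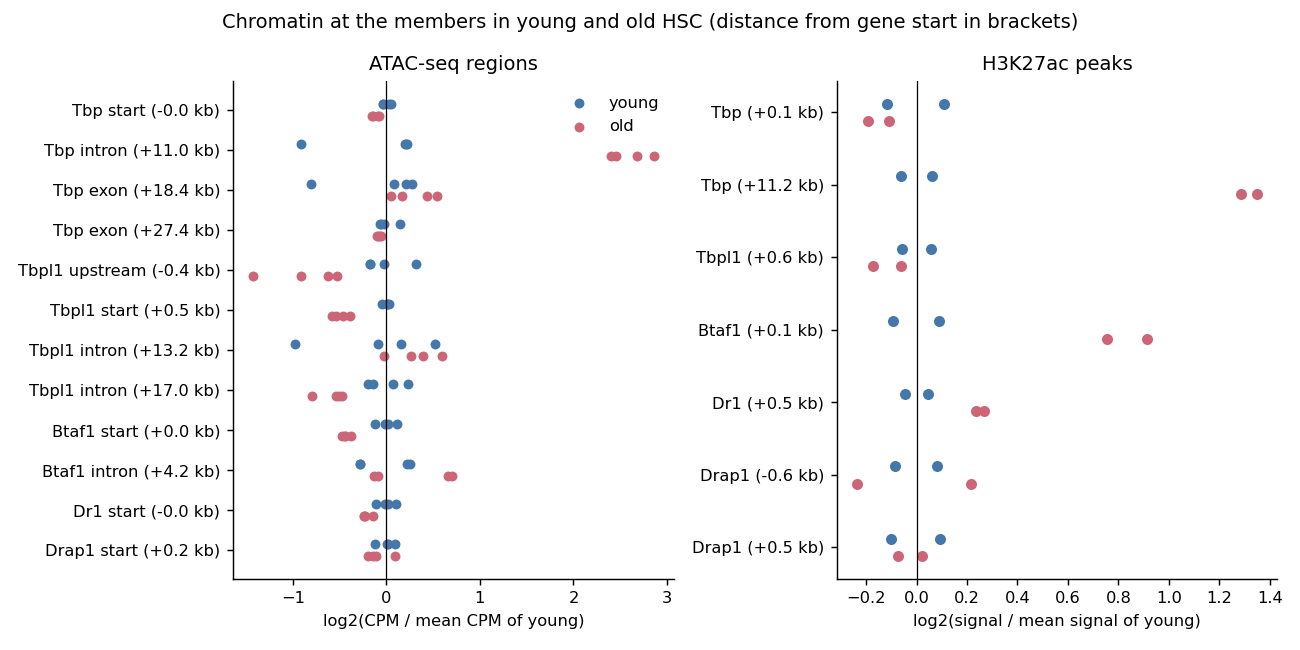
Left, log2 ratio of ATAC-seq CPM in each library to the mean of the young libraries (x axis) at the 12 tested regions (y axis), 4 libraries per age. Right, the same ratio for H3K27ac signal at 7 peaks, 2 libraries per age. The Tbp intron is higher in old HSCs on both sides, while the Btaf1 start is lower in accessibility and higher in H3K27ac.

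The other marks describe the members as transcribed genes. In YHSCs each member had 1 peak of H3K4me3, a mark of active starts, with signals of 24.96 and 24.8 at Tbp, 27.1 and 31.0 at Tbpl1, 24.4 and 25.98 at Btaf1, 20.8 and 20.1 at Dr1 and 22.1 and 21.5 at Drap1. These means stood between percentiles 84.0 and 98.2 of the 33199 H3K4me3 peaks. None of the 55820 peaks of H3K27me3, a repressive mark, was assigned to a member, although 1 lay within 5000 bases of Tbp and 1 within 5000 bases of Dr1. Domains of H3K36me3, which follows elongating polymerase, come from a table that names no sample. They covered 97.8% of Btaf1, 86.0% of Tbpl1 and 81.9% of Dr1. Those over Tbp and Drap1 covered 100% of the gene but ran well past it, with 63000 bases over the 28492 of Tbp and 22000 over the 2175 of Drap1, so they span neighbouring genes as well.

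Finally, the genes of the complexes that hold TBP were counted to see whether the age difference of Btaf1 and Dr1 extended to them. The list had 36 genes, namely subunits of TFIID, which carries TBP to polymerase II promoters, of SL1, TFIIIB and SNAPc, which use TBP at other promoters, of SAGA, and TFIIA, TFIIB and Tbpl2. Of the 34 tested in HSCs, 3 were higher and 2 lower in OHSCs (1 higher without YHSC replicate 2 or 3, and 1 lower without YHSC replicate 1 or 4), which is 14.7% beside 21.1% of all genes, and none by more than 1.5-fold. The median log2 fold change was -0.02 beside 0.00 over all genes tested. Taf4b, a TFIID subunit variant, was higher by 0.38 (edgeR adjusted p = 0.0167), Snapc1 by 0.20 (adjusted p = 0.00605) and Gtf2a1, a TFIIA subunit, by 0.17 (adjusted p = 0.0286). Taf7, a TFIID subunit, was lower with a log2 fold change of -0.24 (adjusted p = 0.0119), and so was the SAGA subunit Supt20 with -0.16 (adjusted p = 0.00146). Each of these differences was smaller than those of Btaf1 (0.54) and Dr1 (0.60).

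Under knockdown, 0 of 33 genes of the list in culture and 0 of 34 after transplantation passed the edgeR test. At an unadjusted p below 0.05 there were 5 in culture, beside 15.3% of all genes, and 0 after transplantation, beside 5.59%, and DESeq2 called 0 in both. With shRNA1 alone in culture, where 9.99% of 19184 genes were called, 2 genes of the list were lower, Taf1 (-0.16, edgeR adjusted p = 0.0185) and Taf9b (-0.36, edgeR adjusted p = 0.0219), and with shRNA2 alone, where 7.69% of 19118 genes were called, Taf2 was lower (-0.19, edgeR adjusted p = 0.0386). All 3 encode TFIID subunits and were named after their values were seen. Taf9b was the only one to differ between hairpins in culture, with a log2 difference of -0.37 for shRNA1 against shRNA2 (edgeR adjusted p = 0.0340). That call was lost without the first shRNA1, the second shRNA1 or the first shRNA2 library (adjusted p = 0.126, 0.234 and 0.383).

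In progenitors the list moved in both directions. For MEP against CMP 14 of 34 were higher and 6 lower, with a median of 0.12 beside -0.07 over all genes. The TFIID subunits Taf12 (1.55) and Taf9b (1.45) and the SL1 subunit Taf1c (1.02) rose most on the log2 scale, and Supt3 of SAGA (-1.25), Snapc1 (-0.58) and Taf1a of SL1 (-0.53) fell most. Btaf1 with 1.23 lay between the second and the third of these rises. For MEP against GMP 14 were higher and 7 lower (4 lower without MEP replicate 1), with a median of 0.13 beside -0.03, led by Taf9b (2.14), Taf12 (1.22) and Taf1c (1.03) on the higher side and by Supt3 (-1.25), Snapc5 (-0.64) and Taf1a (-0.63) on the lower. For GMP against CMP 6 were higher (3 without CMP replicate 1, CMP replicate 2 or GMP replicate 2) and 3 lower, with Taf12 (0.32), Snapc5 (0.32) and Taf6 (0.26) higher and Taf9b (-0.69), Snapc3 (-0.52) and Brf1, the TFIIIB subunit, (-0.29) lower. The list's shares of calls were 58.8%, 61.8% and 26.5% in these comparisons, beside 64.6%, 61.4% and 34.8% of all genes.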

How the data were processed

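The authors deposited gene-level counts of RNA-seq reads (adapters trimmed with cutadapt through Trim Galore, aligned with STAR to mm10, counted with featureCounts on GENCODE M22) and counts of ATAC-seq reads in consensus regions (BWA and MACS2). For the RNA-seq counts, the treatment of strand and of multimapping reads was not stated. For ATAC-seq the paper called peaks from unique reads after removing duplicates. The ChIP-seq tables deposited by the authors hold a signal per peak and library after scaling to a common number of de-duplicated, unique reads, and the H3K36me3 table holds domain positions alone. Columns of fold changes and p-values were not used, nor were 8 columns or tables that match no sample analysed here. The 92 spike-in rows, 6.25 to 6.68% of reads in YHSC and 6.05 to 6.93% in OHSC libraries and absent from the other tables, were left out of library sizes.

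From these counts, differences were tested with edgeR 4.0.16 (TMM, robust quasi-likelihood F test, filterByExpr) in R 4.3.3, with Benjamini-Hochberg adjustment over all genes tested and a threshold of 0.05. Levels are CPM scaled by TMM over all 30 RNA libraries, and fold changes come from each comparison's own fit. ATAC-seq counts (15427933 to 26260337 per library) were tested in the same way in regions above 1.5 CPM in at least 4 libraries. H3K27ac followed the ratio rule, with limma 3.58.1 on log2(signal + 0.5) as an alternative. Ratios of members were tested by exact permutation (scipy 1.17.1). The scripts were tested on simulated data. No pair of RNA libraries was identical.

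The members, the partner list, the markers and the tests were chosen with earlier results of these data known. The text names all 5 members and, per comparison, up to 3 partner genes with the largest called rise and fall. Samples with the same replicate number did not deviate together (correlations of -0.18 to 0.03 between HSC ages), so no block entered the main tests. Alternatives were DESeq2 1.42.0, its size factors, no filter on low counts, a replicate block, each hairpin alone and leaving out each library, where a group left with 1 library is assumed to vary like the others. Exon places come from GENCODE M21 (mm10). The progenitors' ChIP-seq and the Hi-C data were not analysed here.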

Additional observations from a re-analysis of the deposited data

Results flagged for a closer look

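In 40 groups of 4 or 8 libraries examined for a library far from its group, 3 stood out, and chance flags about 1 group in 20. Dr1 was at 125.2 CPM in OHSC replicate 6, where the next highest of the 8 libraries was at 112.0 CPM. Accessibility of the intronic Tbp region was 0.877 CPM in YHSC replicate 4, below the 1.90 CPM of the next lowest library. Accessibility at the Dr1 start was 37.9 CPM in OHSC replicate 8, above the next value of 35.8 CPM.

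Dr1 also differed between the hairpins in cultured OHSCs, with a log2 difference of 0.23 for shRNA1 against shRNA2 by the test of the difference itself. It was higher in 2 of 2 shRNA1 libraries than in both shRNA2 libraries. The comparison called 5.59% of all genes tested. When each library was left out the Dr1 difference ranged from 0.16 to 0.29, and the call did not hold in every such fit.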

How the results depend on the processing

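Of 785 values under alternatives, 709 kept direction and side of the threshold, 25 fell short of it, 2 newly passed it, 23 changed sign and 26 moved, 15 of them levels per kilobase with the length of all annotated exons. The sign changes were in values that no test called. The calls of Btaf1 and Dr1 between the ages held under each alternative run. With DESeq2 and with its size factors, the age difference of Tbp was -0.0099. In culture, shRNA1 alone gave 0.030 for Tbp and 0.21 for Dr1 (adjusted p = 0.00911), and shRNA2 alone gave -0.011 for Dr1. After transplantation Btaf1 was called by DESeq2 (-0.37), and shRNA1 alone gave 0.0021 for Dr1. Without the filter on low counts Tbpl1 differed by -0.024 between MEP and CMP, Tbp (0.12) and Drap1 (0.13) lost their calls between GMP and CMP, and 1 partner gene was lower with age. For H3K27ac in the Tbp intron the main log2 ratio of 1.32 became 1.23 after scaling to the same median and 0.80 with 0.5 added, likewise with limma and with limma and the replicate block. The cause of these shifts was not tested, apart from the 0.5, which weighs more at low signal.

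Leaving out each library in turn, calls were lost for the following values. Cultured Btaf1 ranged from -0.33 to -0.29, Dr1 between hairpins in culture from 0.16 to 0.29, Drap1 and Tbp between GMP and CMP from 0.13 to 0.20 and from 0.12 to 0.21, and Tbp between MEP and GMP from 0.17 to 0.26. The Tbpl1 intron region ranged from -0.64 to -0.50 and the upstream region from -0.93 to -0.65. Signs changed within -0.034 to 0.029 for Tbp with age, -0.028 to 0.0034 for cultured Tbp, -0.045 to 0.019 for transplanted Drap1, -0.074 to 0.035 for Btaf1 between GMP and CMP and -0.037 to 0.076 for Tbpl1 between MEP and CMP. Between hairpins they changed within -0.054 to 0.059 for cultured Btaf1 and, after transplantation, within -0.076 to 0.041 for Drap1, -0.012 to 0.17 for Tbp and -0.098 to 0.070 for Tbpl1. Partner genes called with age numbered 1 to 3 in each direction.

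A block on replicate number, which does not pair these samples, gave 0.46 for the Btaf1 to Tbp ratio and 0.54 for Dr1 to Drap1 over 4 pairs, where p cannot go below 0.125 (adjusted p = 0.188). It left 1 partner gene higher and 1 lower with age, 3556 genes called with age, 445 in culture and 13 for the difference between experiments. Genes called without the filter in culture were 1299, and DESeq2 called 299 between experiments. Limits are the 2 libraries per shRNA and progenitor group, gene-level counts that cannot separate the Btaf1 forms, ChIP values given as scaled signal in place of counts, and low counts in the intronic regions.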

Other observations

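The ratios between members were also read in the groups with 2 libraries each, as log2 values of counts per kilobase without a test. The Dr1 to Drap1 ratio, which lay between -1.02 and -0.66 in OHSCs, was lower in every other library, from -1.33 and -1.30 in MEPs and -1.43 and -1.39 in GMPs down to -1.82 and -1.79 in cultured shRNA2 cells. OHSC-derived shControl cells were at -1.67 and -1.66 after culture and at -1.64 and -1.50 after transplantation, so they did not show the freshly sorted OHSC value. These libraries come from other experiments than the OHSC set, and experiment and cell state cannot be told apart.

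The Btaf1 to Tbp ratio was highest in MEPs (-0.66 and -0.54) and was -1.47 and -1.42 in CMPs and -1.63 and -1.62 in GMPs. With shControl it was -1.69 and -1.64 in culture and -1.65 and -1.59 after transplantation, while the 8 knockdown libraries lay between -2.22 and -1.92. The Tbpl1 to Tbp ratio was lowest in MEPs (-1.94 and -1.89) and highest in the cultured cells (-1.25 to -1.12 over the 6 libraries).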
